A study of Mus musculus with 12 samples.

Results

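The respiratory chain and ATP synthase subunits were taken as all genes whose symbol, alone on a probe set of the array, began with Nduf followed by a, b, c, s or v and a digit, was Sdha to Sdhd, or began with Uqcr, Cox4i, Cox5 to Cox8 or Atp5, with pseudogene symbols left out. This gave 81 genes of the 19935 that could be named, on 105 probe sets. By symbol, 35 of the 81 genes were counted under complex I, 4 under complex II, 8 under complex III, 17 under complex IV and 17 under complex V. Ndufa4, known now as a subunit of cytochrome c oxidase (complex IV), and its relative Ndufa4l2 were thus counted under complex I. A gene with several probe sets, as 16 of them had, was given the average of these.

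RNA came from bone marrow of the hind legs of male C57BL/6J mice aged 10 to 12 weeks, after magnetic enrichment of cells with CD71, the transferrin receptor, which red cell precursors carry at a high level. The 12 arrays were 3 wild type mice (WT), 3 mice with a CD70 transgene (CD70TG, line F13), 3 mice that lack interferon-gamma (Ifng-/-) and 3 that carry the transgene and lack it as well (CD70TG*Ifng-/-), each array being a different mouse. CD70 binds CD27 on lymphocytes, a costimulatory receptor, and the design asks what lasting CD70 signalling does to these marrow cells with and without interferon-gamma. The labels name the transgenic line for the CD70TG mice alone and do not give the promoter that drives the transgene, and the cells were enriched with magnetic beads rather than sorted.

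The inner mitochondrial membrane holds the respiratory chain. Complex I (NADH dehydrogenase) and complex II (succinate dehydrogenase) pass electrons to ubiquinone, complex III (cytochrome bc1) passes them on to cytochrome c, and complex IV (cytochrome c oxidase) to oxygen, while complex V (ATP synthase) uses the proton gradient this builds to make ATP. Red cell precursors need active mitochondria for haem synthesis and lose them at the end of maturation, and the nuclear genes of the subunits are known targets of the factors NRF1, GABP (an ETS factor), YY1 and the oestrogen-related receptors.

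Promoters of these genes were read to show which of those motifs stand near the start sites of the genes that changed. RefSeq promoter entries (GRCm38.p6, 250 bases before to 50 after the start) were found for 66 of the 81 genes, with 71 promoters in all. Each line gives 120 bases before to 30 after the start, on the gene's own strand, with a motif core in capitals. Ndufc1, Ndufs8, Ndufs3 and Ndufa8 are shown as examples for complex I and Sdhb and Sdhd for complex II. All of these hold a core, which not every called gene with a promoter entry does. The windows are chr3:51408926-51409075 (minus strand), chr19:3912745-3912894 (minus), chr2:90904692-90904841 (minus), chr2:36049309-36049458 (minus), chr4:140961151-140961300 (plus) and chr9:50603820-50603969 (minus).
Ndufc1: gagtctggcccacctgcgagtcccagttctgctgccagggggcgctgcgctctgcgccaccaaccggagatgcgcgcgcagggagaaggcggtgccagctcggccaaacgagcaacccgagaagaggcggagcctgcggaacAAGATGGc
Ndufs8: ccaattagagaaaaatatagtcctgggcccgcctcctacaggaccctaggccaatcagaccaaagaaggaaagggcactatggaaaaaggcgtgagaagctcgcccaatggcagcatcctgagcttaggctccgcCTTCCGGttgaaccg
Ndufs3: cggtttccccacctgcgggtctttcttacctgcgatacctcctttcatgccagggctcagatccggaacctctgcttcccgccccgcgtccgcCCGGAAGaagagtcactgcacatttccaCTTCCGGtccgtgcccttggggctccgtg
Ndufa8: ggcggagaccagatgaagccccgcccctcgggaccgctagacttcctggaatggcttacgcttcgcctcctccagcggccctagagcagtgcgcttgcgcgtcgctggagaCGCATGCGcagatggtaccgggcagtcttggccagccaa
Sdhb: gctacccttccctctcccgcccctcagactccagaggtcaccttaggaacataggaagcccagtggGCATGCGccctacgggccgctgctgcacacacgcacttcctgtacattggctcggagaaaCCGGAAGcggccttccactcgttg
Sdhd: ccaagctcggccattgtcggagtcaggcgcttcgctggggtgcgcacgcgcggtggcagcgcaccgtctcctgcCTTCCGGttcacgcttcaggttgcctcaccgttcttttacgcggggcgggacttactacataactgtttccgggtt
The capitals mark AAGATGG (YY1) in Ndufc1, CCGGAAG (the ETS and GABP core) or its reverse complement CTTCCGG in Ndufs8, Ndufs3, Sdhb and Sdhd, and GCATGCG (NRF1) in Ndufa8 and Sdhb. In Ndufa8 the NRF1 core overlaps its own reverse complement, so that both strands match at nearly the same place.

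Searched on both strands over the 300 bases, GCATGCG was in 15.5% of the subunit promoters against 3.58% of all 32851 promoters. CCGGAAG was in 23.9% against 8.86%, AAGATGG in 14.1% against 6.34%, and AAGGTCA (oestrogen-related and other nuclear receptors) in 9.86% against 4.72%. Among the 21262 promoters of protein-coding genes alone, the shares were 4.44%, 11.6%, 6.24% and 4.08%, in the same order. A match is a run of letters and does not show that a factor was bound. These counts were not tested.

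Each value below is a log2 value relative to the median of its probe set over the 12 arrays, so 0 is the middle array of that gene and levels of different genes cannot be compared. The rounding of the deposited numbers keeps a trace of the original level. It placed 54 of the 81 subunit genes at a log2 level of at least 8 in all arrays on at least 1 of their probe sets, as it did 2876 of all 19935 genes. The other 27 were lower in at least 1 array and included the 7 tissue-restricted complex IV isoforms and Ndufa4l2. Genes of level at least 8 as a whole were shifted in CD70TG against WT, with a median of 0.19 (642 called higher and 127 lower), whereas the median of all genes was -0.023. The erythroid markers measured (7 genes) were all of level at least 8, and Alas2 alone among them was called lower in CD70TG. All 13 macrophage markers fell in CD70TG, and none was of level at least 8. The mean of these 13 lay from 0.77 to 1.49 over the WT arrays and from -1.03 to -0.75 over CD70TG. It lay from 1.22 to 1.59 over Ifng-/- and from -1.49 to -1.40 over CD70TG*Ifng-/-. Also called lower in CD70TG were 3 of 10 neutrophil, 6 of 6 B cell and 1 of 6 T and NK cell markers. Of eosinophil and basophil markers 3 of 5 were, and of megakaryocyte markers 0 of 4. None of these lists held a marker called higher, but 2 neutrophil, 2 T and NK cell and 1 megakaryocyte marker lay above 0. The highest were at 1.09, 0.85 and 0.15, in that order. Ifng had values of 0.027, -0.093 and 0.17 in WT against -0.16, -0.014 and -0.025 in Ifng-/- (log2 change -0.10, limma adjusted p = 0.632). Cd70 was 0.26 higher in CD70TG than WT (limma adjusted p = 0.18), and the same difference without interferon-gamma was 0.39 (limma adjusted p = 0.135). Both genes were under level 8, neither passed, and these values therefore do not check the labels.

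With interferon-gamma intact, in CD70TG against WT, 19 of the 81 genes rose (limma adjusted p under 0.05 over all genes), none fell and 62 did not pass. Of all genes, 8.23% were called higher and 2.7% lower. The median change of the 81 genes was 0.16, and 68 of them lay above 0, as did 8765 of all 19935 genes. At level at least 8, 50 of the 54 subunits lay above 0 (92.6%), beside 2319 of all 2876 genes (80.6%). In 39 of the 81 every CD70TG array was above every WT array, as for 17.6% of all genes. Among genes of level at least 8 this held for 31 of the 54 subunits and for 1245 of all 2876. These are whole populations of enriched cells, in which a change in the share of a cell type and a change of RNA per cell cannot be told apart. The macrophage markers moved the other way between the same arrays, and their part in the result was not tested.

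**Figure D1:**
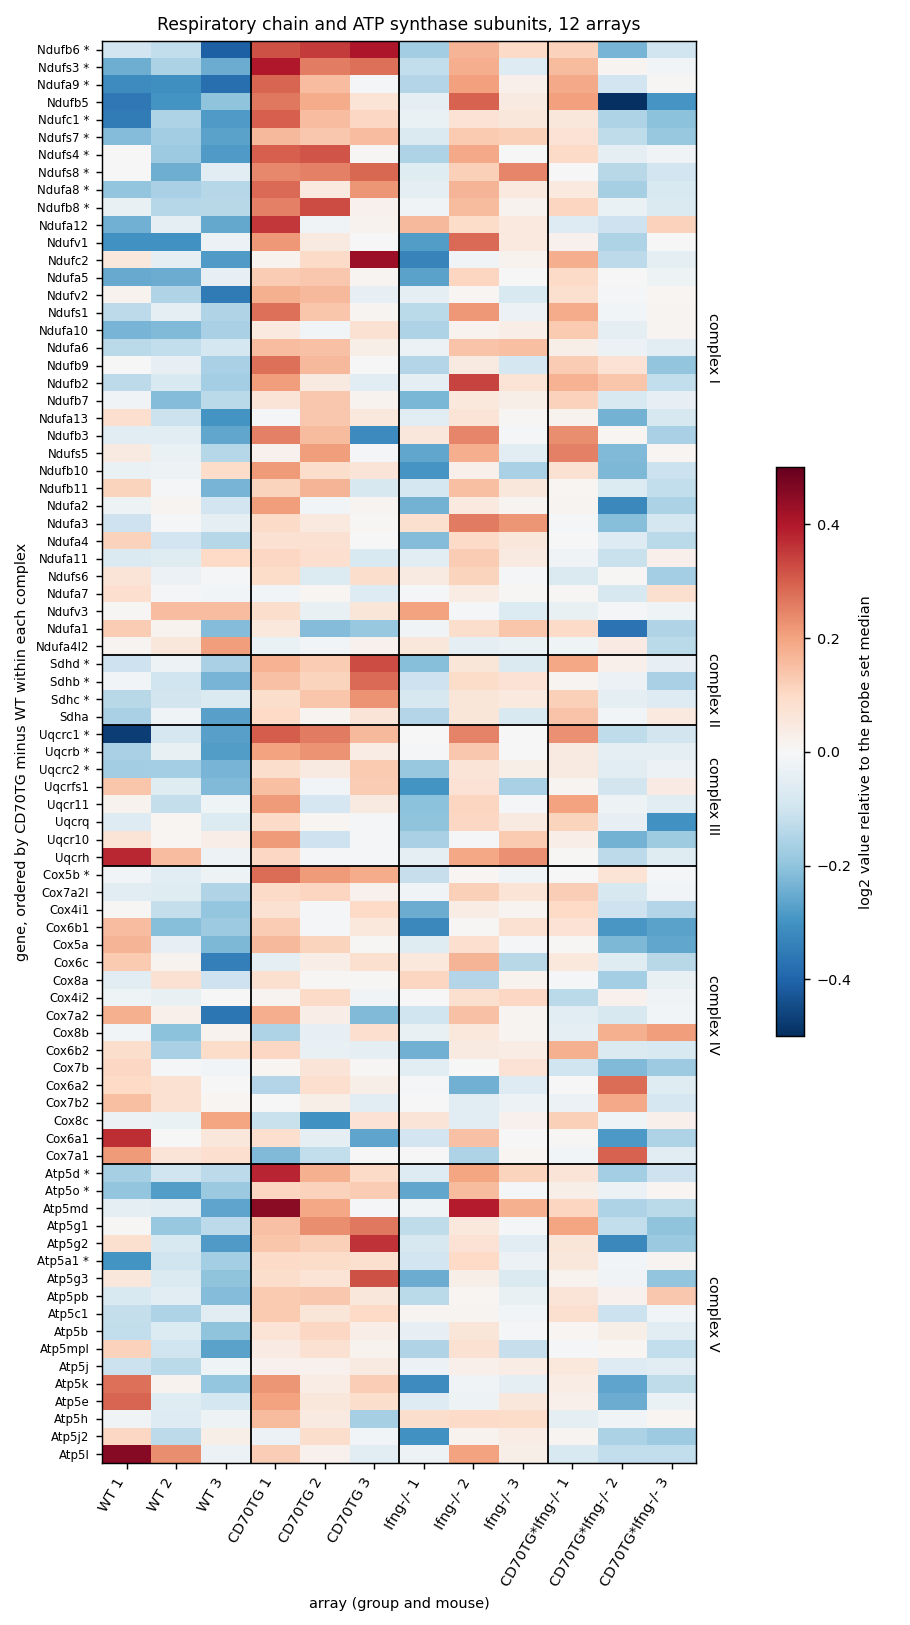
Log2 values of the 81 subunit genes (rows, by complex and then by CD70TG minus WT) in the 12 arrays (columns, 3 mice per group). Red is above and blue below the gene's median, the colour scale ends at -0.5 and 0.5, and an asterisk marks the 19 genes called higher in CD70TG against WT, most of them red in CD70TG and blue in WT.

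Complex I held 9 of the 19 genes (9 of its 35, median change 0.23). Of its 6 core subunits measured, the group that holds the flavin and the iron-sulphur clusters, Ndufs3, Ndufs7 and Ndufs8 rose. The median of the 6 was 0.33. Ndufs3 was -0.24, -0.16 and -0.25 in the WT mice and 0.40, 0.26 and 0.28 in the CD70TG mice. The groups were far apart for this gene, with a log2 change of 0.53 ± 0.087 (SE, n = 3 per group, 1.44-fold, limma adjusted p = 0.00232), the smallest p of the 81. Ndufs7 was -0.21, -0.17 and -0.27 in WT and 0.16, 0.14 and 0.15 in CD70TG. Its change was 0.37 ± 0.082 (SE, limma adjusted p = 0.0125). Ndufs8 was -0.001, -0.25 and -0.058 in WT and 0.24, 0.25 and 0.29 in CD70TG, again with no overlap. Its change was 0.36 ± 0.088 (SE, limma adjusted p = 0.0199). The other core subunits did not pass. Ndufs1, the largest iron-sulphur subunit, differed by 0.25 (limma adjusted p = 0.116), Ndufv1, which binds NADH, by 0.30 (limma adjusted p = 0.146) and Ndufv2 by 0.26 (limma adjusted p = 0.0871).

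Of the 29 accessory subunits of complex I, which surround the core and serve its assembly and stability, 6 rose (median of the 29: 0.19). Ndufb6 had the largest change of all 81 genes. It was -0.097, -0.12 and -0.41 in WT and 0.32, 0.35 and 0.40 in CD70TG, a log2 change of 0.57 ± 0.11 (SE, 1.48-fold, limma adjusted p = 0.00666). WT 3 was the lowest array of this gene, and the CD70TG arrays lay close together. Ndufa9 was -0.32, -0.31 and -0.38 in WT and 0.29, 0.15 and -0.004 in CD70TG (0.48 ± 0.10, SE, limma adjusted p = 0.0101), so that the spread was among the CD70TG mice. Ndufc1 was -0.35, -0.15 and -0.28 in WT and 0.30, 0.16 and 0.10 in CD70TG (0.45 ± 0.087, SE, limma adjusted p = 0.00589). Its 2 probe sets differed by 0.025. Ndufs4, Ndufa8 and Ndufb8 rose by 0.36, 0.35 and 0.31. Ndufb5 had a change of 0.46 but a wider error (SE 0.14) and did not pass (limma adjusted p = 0.0569). Ndufa4 differed by 0.094 (limma adjusted p = 0.558) and Ndufa4l2, known for its response to hypoxia, by -0.10 (limma adjusted p = 0.418).

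Complex II, the only one shared with the citric acid cycle, had 3 of its 4 genes called higher (median 0.27). Sdhd, one of the membrane anchors, was -0.10, -0.025 and -0.16 in WT and 0.17, 0.13 and 0.33 in CD70TG (0.31 ± 0.09, SE, limma adjusted p = 0.0437). Sdhb, the iron-sulphur subunit, was -0.014, -0.10 and -0.23 in WT and 0.15, 0.11 and 0.28 in CD70TG (0.29 ± 0.085, SE, limma adjusted p = 0.0403). The arrays did not overlap for either gene, and CD70TG 3 was the highest in both. The other anchor, Sdhc, rose by 0.25 (limma adjusted p = 0.0458). Sdha, the flavoprotein, had -0.16, -0.017 and -0.27 in WT and 0.099, 0.014 and 0.064 in CD70TG, a difference of 0.21 that did not pass (limma adjusted p = 0.124).

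In complex III, 3 of 8 genes rose (median 0.12): Uqcrc1 and Uqcrc2, the core proteins, and Uqcrb. Uqcrc1 was -0.47, -0.085 and -0.27 in WT and 0.30, 0.26 and 0.16 in CD70TG (0.52 ± 0.11, SE, 1.43-fold, limma adjusted p = 0.0117). The WT mice were widely spread here, with WT 1 lowest. Uqcrb was -0.16, -0.039 and -0.28 in WT and 0.20, 0.23 and 0.037 in CD70TG (0.32 ± 0.082, SE, limma adjusted p = 0.0268), and its 3 probe sets gave 0.30 to 0.33. Uqcrc2 rose by 0.28 (limma adjusted p = 0.0331). Uqcrfs1, the Rieske iron-sulphur protein, differed by 0.14 (limma adjusted p = 0.442) and Uqcrh, the hinge protein, by -0.14 (limma adjusted p = 0.409).

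Complex IV had 1 called gene of 17 (median 0.050). Its 7 tissue-restricted isoforms were all under level 8. Across all genes of level at least 8, 22.3% were called higher (median 0.19). Of the other 10 complex IV genes, all of that level, 1 was called (10%, median 0.11). That gene was Cox5b, a zinc-binding subunit, at -0.014, -0.052 and -0.026 in WT and 0.28, 0.21 and 0.19 in CD70TG (0.26 ± 0.066, SE, limma adjusted p = 0.0251). Both groups were tight, and its 2 probe sets agreed within 0.0018. Cox4i1, the main form of the regulatory subunit IV, was 0.004, -0.12 and -0.20 in WT and 0.075, -0.004 and 0.10 in CD70TG, with overlap and a difference of 0.16 (limma adjusted p = 0.296). Cox5a differed by 0.13 (limma adjusted p = 0.461), and Cox6a1 by -0.22 (limma adjusted p = 0.255). None of the 7 tissue-restricted isoforms (of muscle, lung or testis) passed, and their median was -0.069. Cox7a1, the heart and muscle form, had the smallest p of these. It was 0.21, 0.063 and 0.083 in WT and -0.22, -0.12 and -0.002 in CD70TG (-0.23, limma adjusted p = 0.142). Cox4i2, Cox6a2, Cox6b2, Cox7b2, Cox8b and Cox8c ranged from -0.16 (Cox8c) to 0.051 (Cox4i2).

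Of the 17 genes of complex V, 3 rose (median 0.21) and 16 lay above 0. At level at least 8, 3 of its 16 genes rose (18.8%, median 0.20), against 22.3% of all genes of that level (median 0.19). Of these 16, 15 lay above 0, beside 80.6% of all genes of that level. Atp5d, the delta subunit of the rotor, was -0.17, -0.099 and -0.13 in WT and 0.38, 0.18 and 0.095 in CD70TG (0.35 ± 0.093, SE, limma adjusted p = 0.0288). Atp5o, the subunit of the outer stalk that confers sensitivity to oligomycin, was -0.20, -0.28 and -0.19 in WT and 0.11, 0.12 and 0.13 in CD70TG (0.34 ± 0.09, SE, limma adjusted p = 0.0285). In Atp5o the CD70TG mice differed little from each other. Atp5a1, the alpha subunit of the catalytic head, rose by 0.28 (limma adjusted p = 0.0295). Its partner Atp5b, the catalytic beta subunit, had -0.12, -0.07 and -0.20 in WT and 0.069, 0.10 and 0.033 in CD70TG, without overlap but short of the threshold (0.20, limma adjusted p = 0.0711). The genes of the membrane ring, Atp5g1, Atp5g2 and Atp5g3, encode the same mature protein and differed by 0.32, 0.30 and 0.23, none of them called. Atp5l, the g subunit, was the complex V gene below 0, at -0.19 (limma adjusted p = 0.278). All 6 of its probe sets lay between -0.24 and -0.17.

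**Figure D2:**
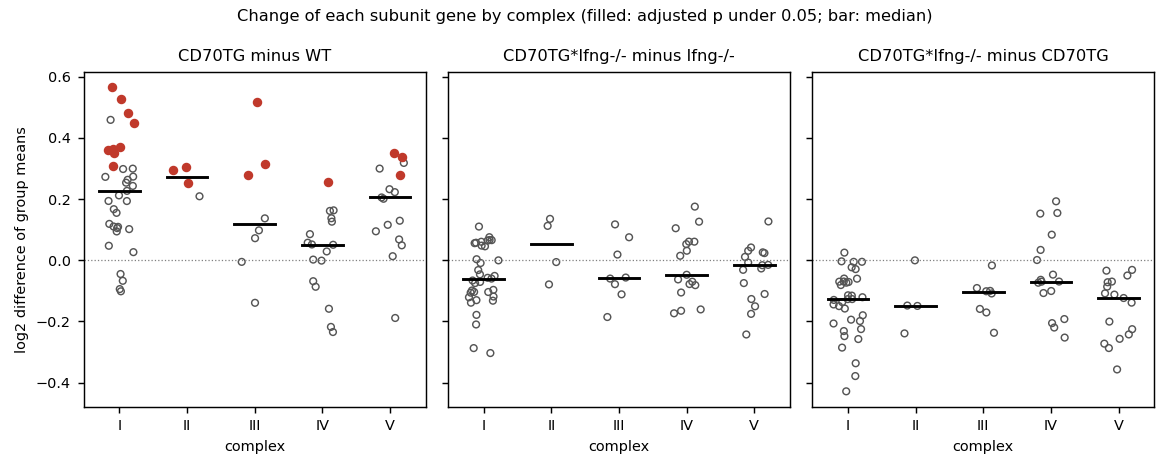
Difference of group means (log2) for each of the 81 genes, by complex, in CD70TG minus WT, CD70TG*Ifng-/- minus Ifng-/- and CD70TG*Ifng-/- minus CD70TG. Filled points passed the threshold (19, 0 and 0 genes) and bars are medians, which for CD70TG minus WT run from 0.050 in complex IV (0.11 without its 7 tissue-restricted isoforms) to 0.27 in complex II.

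The shift of all genes of level at least 8 is the background for the subunits of that level. Of the 54, 16 rose (29.6%), against 22.3% of all 2876 genes of that level, and their median of 0.21 stood beside 0.19. By complex, these were 7 of 20 in complex I, 2 of 3 in II and 3 of 5 in III. In complexes IV and V they were 1 of 10 and 3 of 16. When each array was centred within the level classes, 8 subunit genes were called higher (Ndufb6, Ndufs3, Ndufa9, Ndufc1, Ndufb8, Uqcrc1, Sdhb and Atp5g1) and 2 lower (Atp5l and Cox6a1), and the median of the 81 was 0.074. Of all genes, 6.01% were then called higher and 2.94% lower. At level at least 8, 5 of the 54 subunits were higher (9.26%) and 2 lower (3.70%), beside 7.27% and 9.01% of all genes of that level. Ndufs3, Ndufb6, Ndufc1, Ndufa9 and Uqcrc1 were called under each of the 3 other scalings tried. Single mice weighed on the count of 19: it dropped to 7 when WT 1 was left out, to 9 for WT 2, to 8 for WT 3, to 4 for CD70TG 1 and to 7 for CD70TG 2. The count of all genes called higher dropped as well, from 1640 to 511, 1241, 962, 595 and 672, in the same order. Ndufb6, Ndufc1, Ndufs3 and Ndufs7 were called with any 1 of the 12 arrays left out.

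**Figure D3:**
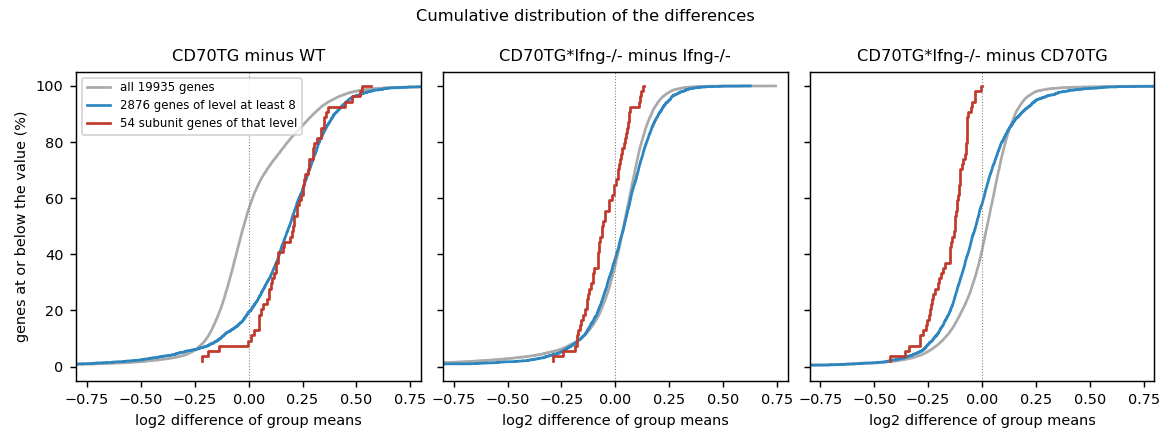
Cumulative share of genes (percent) by log2 difference of group means, for all 19935 genes, the 2876 of level at least 8 and the 54 subunit genes of that level, with the axis ending at -0.8 and 0.8. In CD70TG minus WT the median was 0.21 for the 54 subunits and 0.19 for all genes of their level, while 7.41% and 19.4% lay below 0. In CD70TG*Ifng-/- minus CD70TG the medians were -0.13 and -0.029, and 100% and 57.8% lay below 0. In CD70TG*Ifng-/- minus Ifng-/- the median was -0.052 for the 54 subunits and 0.041 for all genes of their level.

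Without interferon-gamma, no subunit gene passed in the comparison of transgenic with non-transgenic mice. In CD70TG*Ifng-/- against Ifng-/-, limma called 0 of the 81 higher and 0 lower, and 2 had an unadjusted p under 0.05, as did 2422 of all 19935 genes. Among all genes, 0.156% were called higher and 2.35% lower. The median of the subunits was -0.048, with 30 above and 51 below 0. Of all genes 12689 of 19935 lay above 0 (median 0.038). At level at least 8, 20 of the 54 subunits did (median -0.052), against 1767 of all 2876 genes (median 0.041). Ndufa3, an accessory subunit of complex I, had the smallest p of the 81 and was named after its values were seen. It was 0.081, 0.26 and 0.22 in Ifng-/- mice, and the CD70TG*Ifng-/- mice had -0.005, -0.21 and -0.087 (-0.29 ± 0.076, SE, limma adjusted p = 0.0719), which passed, as a fall, after quantile normalization, with centring within level classes and with array weights. Leaving out CD70TG*Ifng-/- 1 gave 1 call, of Ndufb5, which was lower, as were 372 of all genes. Ndufs3 was -0.12, 0.18 and -0.066 in the Ifng-/- mice, overlapping with 0.16, 0.014 and -0.014 in the CD70TG*Ifng-/- mice, with a difference of 0.056 ± 0.087 (SE). Uqcrc1 differed by -0.078 ± 0.11 (SE), Sdhb by -0.079 ± 0.085, Cox4i1 by 0.014 ± 0.093 and Atp5a1 by 0.026 ± 0.075. The macrophage markers were again lower in all 13 cases in these transgenic mice.

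Loss of interferon-gamma without the transgene gave no call either. In Ifng-/- against WT, limma called 0 of the 81 genes and 0.00502% of all genes, and 18 subunit genes had an unadjusted p under 0.05. Values lay above 0 in 58 genes, with a median of 0.076. At level at least 8, 15 of the 54 subunits had an unadjusted p under 0.05 and 42 lay above 0, with a median of 0.095, against 629 and 2271 of all 2876 genes and a median of 0.11. The smallest adjusted p was that of Ndufa9 (0.36 ± 0.10, SE, limma adjusted p = 0.245). Ndufa9 was -0.14, 0.21 and 0.027 in Ifng-/-, above all WT arrays. Ndufc1, at -0.032, 0.072 and 0.058 in Ifng-/-, differed from WT by 0.29, Ndufs7 by 0.28 and Uqcrc1 by 0.36. This comparison uses the same WT arrays as CD70TG against WT.

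Among transgenic mice, those without interferon-gamma had the lower values in most subunit genes, though none passed. In CD70TG*Ifng-/- against CD70TG, limma called 0 of the 81 genes lower and 0 higher, where 0.988% and 0.426% of all genes were called, and 19 had an unadjusted p under 0.05. At level at least 8, 13 of the 54 subunits and 551 of all 2876 genes had such a p. Values lay below 0 in 74 of the 81 genes and in 8247 of all 19935. They did so in all 54 subunits of level at least 8 and in 1663 of the 2876 genes of that level. The median of the 54 was -0.13, beside -0.029 for all genes of that level. With centring within level classes 51 of the 54 lay below 0, beside 1414 of the 2876. In 23 of the 81 genes every CD70TG*Ifng-/- array was below every CD70TG array, as for 8.27% of all genes. At level at least 8 this held for 22 of the 54 subunits and for 407 of all 2876 genes. Ndufb6 was 0.12, -0.23 and -0.099 in CD70TG*Ifng-/- against 0.32, 0.35 and 0.40 in CD70TG (-0.43 ± 0.11, SE, limma adjusted p = 0.0925). Ndufs8 was 0.001, -0.14 and -0.097 against 0.24, 0.25 and 0.29 (-0.34 ± 0.088, SE, limma adjusted p = 0.0937). Both passed, as falls, when only genes of level at least 8 were tested. Ndufb6 also passed with Ifng-/- 1 or with CD70TG*Ifng-/- 1 left out, where 1 and 3 subunit genes were called lower. Of all genes, 262 and 283 were then called lower. Cox5b, the called gene of complex IV in CD70TG against WT, was -0.001, 0.069 and -0.008 in CD70TG*Ifng-/- (-0.21 ± 0.066, SE, limma adjusted p = 0.197). The CD70TG arrays also enter CD70TG against WT, with the opposite sign.

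The difference between the transgene's effect with and without interferon-gamma was tested as an interaction, the change in CD70TG against WT minus that in CD70TG*Ifng-/- against Ifng-/-. It passed for 4 subunit genes, all of complex I and all with a positive value: Ndufb6, Ndufc1, Ndufs8 and Ndufs7. Of all genes, 1.61% were called positive and 0.281% negative. Among genes of level at least 8, 4 of the 54 subunits (7.41%) stood beside 3.16%. The median over the 81 was 0.18, 70 lay above 0, and 27 had an unadjusted p under 0.05. At level at least 8 the median was 0.20 over the 54 subunits and 0.15 over all 2876 genes. There 52 of the 54 subunits and 2054 of the 2876 genes lay above 0, and 20 and 901 had an unadjusted p under 0.05. For Ndufc1 the interaction was 0.58 ± 0.12 (SE, limma adjusted p = 0.0331), from 0.45 with interferon-gamma and -0.13 without it. Ndufc1 was 0.058, -0.15 and -0.20 in CD70TG*Ifng-/-, the range of these mice reaching from the WT to the Ifng-/- values. For Ndufb6 it was 0.67 ± 0.16 (SE, limma adjusted p = 0.0463), with -0.17, 0.17 and 0.097 in Ifng-/-. For Ndufs8 the interaction was 0.54 ± 0.13 (SE, limma adjusted p = 0.0442), with -0.06, 0.12 and 0.24 in Ifng-/-. For Ndufs7 it was 0.51 ± 0.12 (SE, limma adjusted p = 0.0429), with -0.073, 0.13 and 0.12 in Ifng-/- mice, and the CD70TG*Ifng-/- mice had 0.073, -0.13 and -0.19. In each of these 4 genes, picked for this difference in the same arrays, CD70TG had the highest group mean and WT the lowest. Ndufs3 (0.47, limma adjusted p = 0.0662), Uqcrc1 (0.60, limma adjusted p = 0.0741) and Atp5d (0.50, limma adjusted p = 0.0669) did not pass. Single mice decided the count of 4: 0 were left without WT 1, WT 3, CD70TG 1, CD70TG 2, Ifng-/- 2, Ifng-/- 3, CD70TG*Ifng-/- 2 or CD70TG*Ifng-/- 3 and 1 without CD70TG 3, while it was 4 without WT 2, 5 without Ifng-/- 1 and 10 without CD70TG*Ifng-/- 1. The positive calls over all genes moved as well. They were 321 with all arrays, 74 without WT 1 (the fewest), 414 without WT 2, 229 without Ifng-/- 1 and 614 without CD70TG*Ifng-/- 1 (the most). Centring within level classes left Ndufc1 alone, 1.85% of the 54 subunits beside 1.56% of all genes of level at least 8. The macrophage markers had positive interactions too (6 of 13 called), and their part was not tested.

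**Figure D4:**
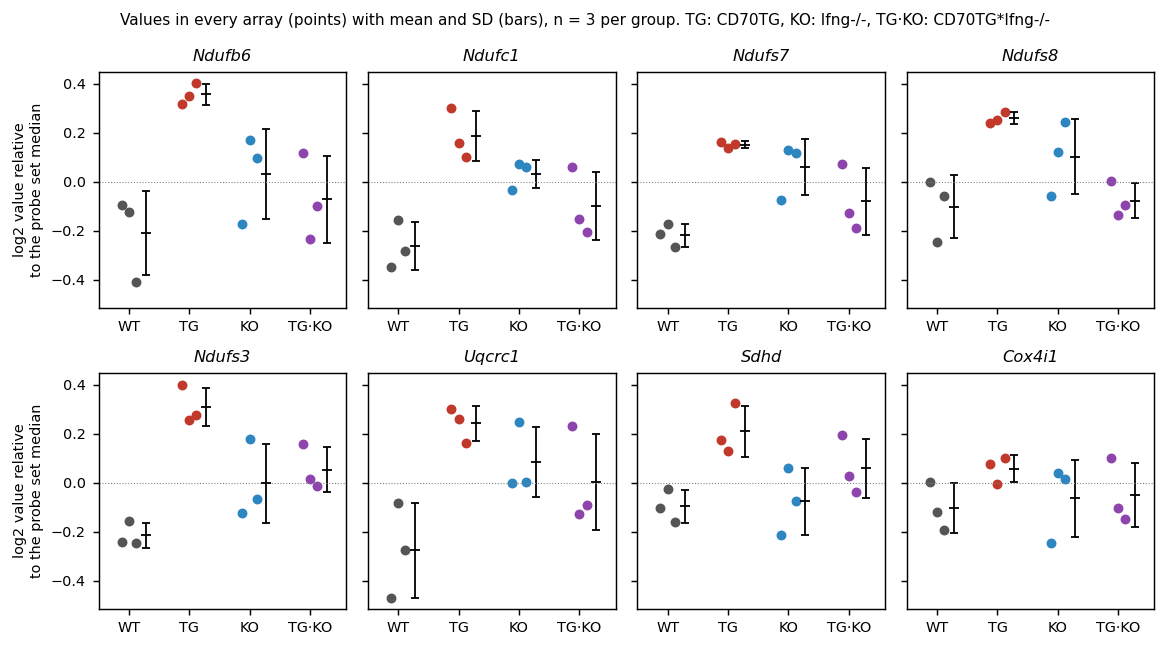
Log2 values of 8 subunit genes in every array (points), with mean and SD beside them (n = 3 per group; TG is CD70TG, KO is Ifng-/-, TG·KO is CD70TG*Ifng-/-). In Ndufb6, Ndufc1, Ndufs7 and Ndufs8, the genes with a called interaction, the CD70TG points lie above the WT points, and Cox4i1 shows a gene with overlapping groups.

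Arrays of 1 group differed from each other, in the subunits and in other genes of their level. The median of the 81 genes was -0.016, -0.062 and -0.14 in the WT arrays and 0.13, 0.084 and 0.029 in the CD70TG arrays, so these groups did not overlap. Nor did they over all genes of level at least 8, where the medians were -0.143, -0.061 and -0.114 in WT against 0.14, 0.081 and -0.034 in CD70TG. The Ifng-/- arrays had medians of -0.073, 0.082 and 0.014, and the CD70TG*Ifng-/- arrays of 0.048, -0.073 and -0.064, overlapping. For the 6 core subunits of complex I the WT medians were -0.174, -0.165 and -0.198 and those of CD70TG 0.228, 0.151 and 0.084. The Ifng-/- mice had core medians of -0.099, 0.155 and 0.009, and the CD70TG*Ifng-/- mice of 0.077, -0.070 and -0.006. Ifng-/- 1 had the lowest value of its group in 68 of the 81 genes and Ifng-/- 2 the highest in 59, and CD70TG*Ifng-/- 1 had the highest of its group in 63. All genes of level at least 8 had the same arrays at these ends: Ifng-/- 1 was lowest in 57.6% of them, Ifng-/- 2 highest in 82.0% and CD70TG*Ifng-/- 1 highest in 58.9%. For the 54 subunits of that level the shares were 90.7%, 77.8% and 83.3%. Ifng-/- 1 and 2 also differed in neutrophil markers, whose mean was 1.78, -0.66 and 0.51 in the Ifng-/- arrays, and the part of this in the subunit values was not tested.

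The genes that work beside the subunits were counted in the same way for CD70TG against WT, where, as above, 8.23% of all genes and 22.3% of those of level at least 8 were called higher. Called lower were 2.7% of all genes and 127 of the 2876 of that level. Of 4 chain genes outside the rule, all of level at least 8, Cyc1 (cytochrome c1, 0.35) and Cycs (cytochrome c, 0.31) rose, and Ndufab1, the acyl carrier subunit of complex I, did not pass (0.22, limma adjusted p = 0.137). Of 41 assembly factors, 4 of them of level at least 8, 8 rose (19.5%) and none fell, among them Ecsit and Ndufaf4, both for complex I (0.44 each), and Coa5, for complex IV (0.44). Of 17 genes of pyruvate dehydrogenase and the citric acid cycle, 11 of them of level at least 8, 9 rose (52.9%) and none fell, with Suclg2 (a subunit of succinyl-CoA ligase) at 0.60, Idh3b (of isocitrate dehydrogenase) at 0.44 and Pdhb (of pyruvate dehydrogenase) at 0.40. Of 16 regulators of mitochondrial biogenesis, 4 of them of level at least 8, 3 rose (18.8%): Pprc1 (a PGC-1 related coactivator, 0.51), Ssbp1 (which binds mitochondrial DNA, 0.30) and Polg (its polymerase, 0.27). Glycolysis had 2 of 13 higher (15.4%), Tpi1 (0.55) and Pfkl (0.31), with 8 of the 13 of level at least 8. Carriers and channels, 8 of 9 of level at least 8, had 4 higher, such as Vdac2 of the outer membrane (0.62) and the phosphate carrier Slc25a3 (0.31), and 1 lower, Slc25a39 (-0.70). The mitophagy list went mostly the other way, with 5 of 12 lower (8 of the 12 of level at least 8), such as Bnip3l, the receptor that clears mitochondria from maturing red cells (-0.59), and Gabarapl2 (-0.57), and 1 higher, Phb2 (0.48). In CD70TG*Ifng-/- against Ifng-/- limma called 1 gene of these 7 lists, a carrier, as lower. The interaction was called, with a positive value, for Suclg2 (0.67), Vdac2 (0.62) and Coa5 (0.48).

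The subunit genes that rose in CD70TG against WT and those that did not were set side by side for their promoter motifs. Of the 19 called genes 15 had a promoter entry, with 16 promoters. AAGATGG, the core in Ndufc1 above, was in 5 of these 16 (31.2%) and in 9.09% of the 55 promoters of genes not called. CCGGAAG was in 5 of 16 (31.2%) and 21.8%, GCATGCG in 3 of 16 (18.8%) and 14.5%, and AAGGTCA in 1 of 16 (6.25%) and 10.9%. With so few promoters these shares are a description and were not tested.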

How the data were processed

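The authors deposited log2 values, for which the submitters' processing notes name RMA. The sources used here give neither the version of RMA nor a genome build. Every probe set's median over the 12 arrays is 0, so levels are not held; how the values were centred, and the log base itself, are stated nowhere and were taken from the values and from RMA. Probe sets were named from GEO's platform annotation, which can be old (21780 with 1 symbol, 1605 with several, 5430 with none); those without a single symbol named no gene.

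Values were averaged per symbol (19935 genes, none filtered out) and a model of 4 group means was fitted to all 12 arrays with limma 3.58.1 (lmFit, eBayes, 8 residual degrees of freedom) in R 4.3.3, tested on simulated data. Tests were two-sided with Benjamini-Hochberg adjustment over all genes and a threshold of 0.05. The level class came from the rounding step (tolerance 0.05 of a step): 4364 of 28815 probe sets were at least 8. As a check, 47 of 67 ribosomal and 1 of 1027 olfactory genes fell there. The labels name no batch.

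The rule for naming took fixed subunits, the 5 largest called changes each way and the 2 smallest p per complex. Other called subunits, and Ndufv2, Ndufb5, Ndufa3, Uqcrh, Cox6a1, Atp5l and Atp5g1 to Atp5g3, were added after their values were seen. In other lists the 3 smallest p in CD70TG against WT were named. Members and lists were chosen with earlier results of these data known. Alternatives were quantile normalization, centring of arrays, a level filter, other probe set choices, a replicate block, array weights, the compared groups fitted alone, fewer arrays and each array left out.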

Additional observations from a re-analysis of the deposited data

Results flagged for a closer look

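The effect of the transgene differed with and without interferon-gamma in 4 subunit genes, all of complex I, by the interaction term of the limma fit (n = 3 mice per group). The difference of the log2 changes was 0.67 for Ndufb6 (limma adjusted p = 0.0463), 0.58 for Ndufc1 (limma adjusted p = 0.0331), 0.54 for Ndufs8 (limma adjusted p = 0.0442) and 0.51 for Ndufs7 (limma adjusted p = 0.0429). In these 4 genes every CD70TG array was above every WT array, and the arrays of CD70TG*Ifng-/- and Ifng-/- overlapped. The genes were picked for this difference in the same arrays, so this order adds no support. Of all 2876 genes of level at least 8, CD70TG lay wholly above WT in 1245. In the other pair 273 were wholly higher and 232 wholly lower. Of all genes, 1.61% were called positive. Among genes of level at least 8 it was 3.16%, beside 4 of the 54 subunits (7.41%). None of the 4 calls held with each of the 12 arrays left out in turn. Centring within level classes left Ndufc1 alone, and none of the 4 passed with the replicate number as a block. With that block 112 of all genes were called positive, beside 321 in the fit reported.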

How the results depend on the processing

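For CD70TG against WT, 19 subunit genes were called higher and 0 lower. The count higher was 12 with quantile normalization, 8 with centring within level classes (2 lower) and 33 with array weights (2 lower), and 4 to 24 with an array left out. The median of all 81 genes, 0.16, became 0.074 with centring within level classes. In CD70TG*Ifng-/- against Ifng-/- the count lower went from 0 to 1 with quantile normalization, 1 with centring within level classes and 2 with array weights, and was 0 to 1 with an array left out. Of all genes, 468 were lower in the fit reported, and 550, 509 and 944 in these 3 settings, in the same order. With an array left out, 292 to 744 were. In CD70TG*Ifng-/- against CD70TG the count lower was 2 among genes of level at least 8, where fewer genes are tested, 26 with array weights (2 higher), and 0 to 3 with an array left out. Over all genes, 197 were lower in the fit reported and 75 of 2876 among genes of that level. With array weights 1789 were lower (1730 higher), and with an array left out 105 to 283. The interaction, 4 calls in the fit reported, gave 1 with centring within level classes (median 0.080 in place of 0.18), 10 among genes of level at least 8, 19 with array weights, 0 without CD70TG 3 and Ifng-/- 2, and 0 to 10 with an array left out. Its positive calls over all genes were 321 in the fit reported, and 381, 266 of 2876, 1392 and 147 in the first 4 of these settings, in the same order. With an array left out they were 74 to 614. Array weights were uneven, from 0.41 (Ifng-/- 2) to 4.37 (CD70TG 2), and the cause of the moves was not tested. Of all genes, 1640 were called higher and 539 lower in CD70TG against WT, 3448 and 1889 with array weights and 511 and 342 without WT 1, and 75.3% of calls were higher, 66.7% with quantile normalization and 67.2% within level classes. No called change turned its sign. Leaving out CD70TG 3 and Ifng-/- 2, and using the brighter probe sets of a gene, were chosen after seeing the data.

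Deviations of arrays with the same replicate number correlated between -0.40 and 0.31 over 18 pairs. Those of arrays with different numbers ran from -0.52 to 0.53. These ranges show no pairing of the mice by number and cannot exclude it. With the replicate number as a block, 13 subunit genes were called higher in CD70TG against WT and 0 in the interaction. Of all genes 1231 and 112 were. For arrays the number of mice, 3 per group, limits the precision.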

Other observations

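Probe sets shared with another symbol were kept out of the counts and cover 3 subunit genes. Those of Cox7c, a complex IV subunit whose probe sets also carry Gm12338, were 0.26, 0.25 and 0.20 higher in the CD70TG than in the WT mean (log2, n = 3 per group). Those of Ndufb4 and Ndufb4b, copies of a complex I subunit, were 0.25 and 0.21 higher, and that of Ndufs5 and its pseudogene was 0.31 higher, beside 0.12 for the probe set that carries Ndufs5 alone. These values were not tested.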
